A study of Mus musculus with 8 samples.

Results

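Microglia, the macrophages of the brain, are recognised by a set of genes, many but not all of which most other macrophages express weakly or not at all. The genes described here are 10 of that set, namely Fcrls, Olfml3, Cd81, P2ry12, P2ry13, Tmem119, Gpr34, Siglech, Sall1 and Slc2a5. They are among 19938 genes measured in macrophages of the mouse colon and in monocytes. They were chosen by name with earlier results of these data known, each from the probe set that carries its symbol alone. All 10 were measured, and each had 1 such probe set, so no choice between probe sets was needed. The arrays held no microglia, so a gene is called shared below when gut macrophages gave a signal for it above a reference for genes that are silent in these tissues, and nothing is said about its level relative to brain.

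The study sorted mononuclear phagocytes from the colonic lamina propria and the spleen of C57BL/6 mice, with 1 Affymetrix array for each of 8 groups. All groups carried the Cx3cr1gfp/+ genotype, in which GFP replaces 1 copy of the fractalkine receptor gene Cx3cr1 and reports its activity, so the controls share this heterozygous loss. Colitis was produced with Dextran Sodium Sulphate (DSS) and sampled at day 4. There were 4 CX3CR1hi colonic macrophage arrays: resident and monocyte-reconstituted resident macrophages in steady state, labelled female, and F4/80hi macrophages in steady state and in colitis, labelled male. The CX3CR1int colonic cells, Ly6Clo and Ly6Chi, came from colitis and were labelled male, with 1 array each. Splenic Ly6Chi monocytes came from steady state, labelled female, and from colitis, labelled male. The labels do not say how many mice gave a sample or how reconstitution was done. CX3CR1hi, CX3CR1int and splenic arrays are treated below as 3 populations of 4, 2 and 2 arrays. The p-values therefore measure the spread between arrays of related but not identical cells, not between replicate cultures or animals of a group.

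Microglia arise from embryonic precursors, whereas most macrophages of the adult colonic lamina propria are renewed from blood monocytes of the Ly6Chi kind. A monocyte that enters the healthy colon loses Ly6C and gains CX3CR1 and the receptors of a resident macrophage. Both cell types live in tissue rich in TGF-beta, a cytokine that microglia need in order to express much of their characteristic gene set, and the transcription factor Sall1 is a known regulator of the microglial state.

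Of the 10 genes, 8 were measured above the reference on all 4 CX3CR1hi arrays, and every one of these 8 was higher on each CX3CR1hi array than on each of the other 4 arrays. The same full separation held for 11.9% of all 19938 genes. For 7 of the 10 the separation was at least 2-fold, against 1.6% of all genes. Because earlier results were known when the genes were chosen, these counts and those of the tests below are descriptions, not independent support. Siglech missed that mark, with a gap of 0.68 on the log2 scale. Sall1 and Slc2a5 were not measured above the reference on any of the 8 arrays. On each splenic monocyte array 7 of the 10 genes were above it, all but Fcrls, Sall1 and Slc2a5. Passing the reference alone therefore does not set the gut macrophages apart from monocytes. The reference is the 95th percentile of 1194 olfactory and vomeronasal receptor genes, and lay between 5.20 and 5.51 on the log2 scale, depending on the array. The median of all probe sets was 5.77 to 5.87, above the reference on every array, so most probe sets passed it as well. Being above it is thus not particular to these genes. The gap between the lowest CX3CR1hi array and the highest other array was 4.13 for Fcrls, 2.93 for both Olfml3 and Cd81, 2.39 for Tmem119, 2.26 for P2ry13, 2.17 for Gpr34 and 1.27 for P2ry12.

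**Figure D1:**
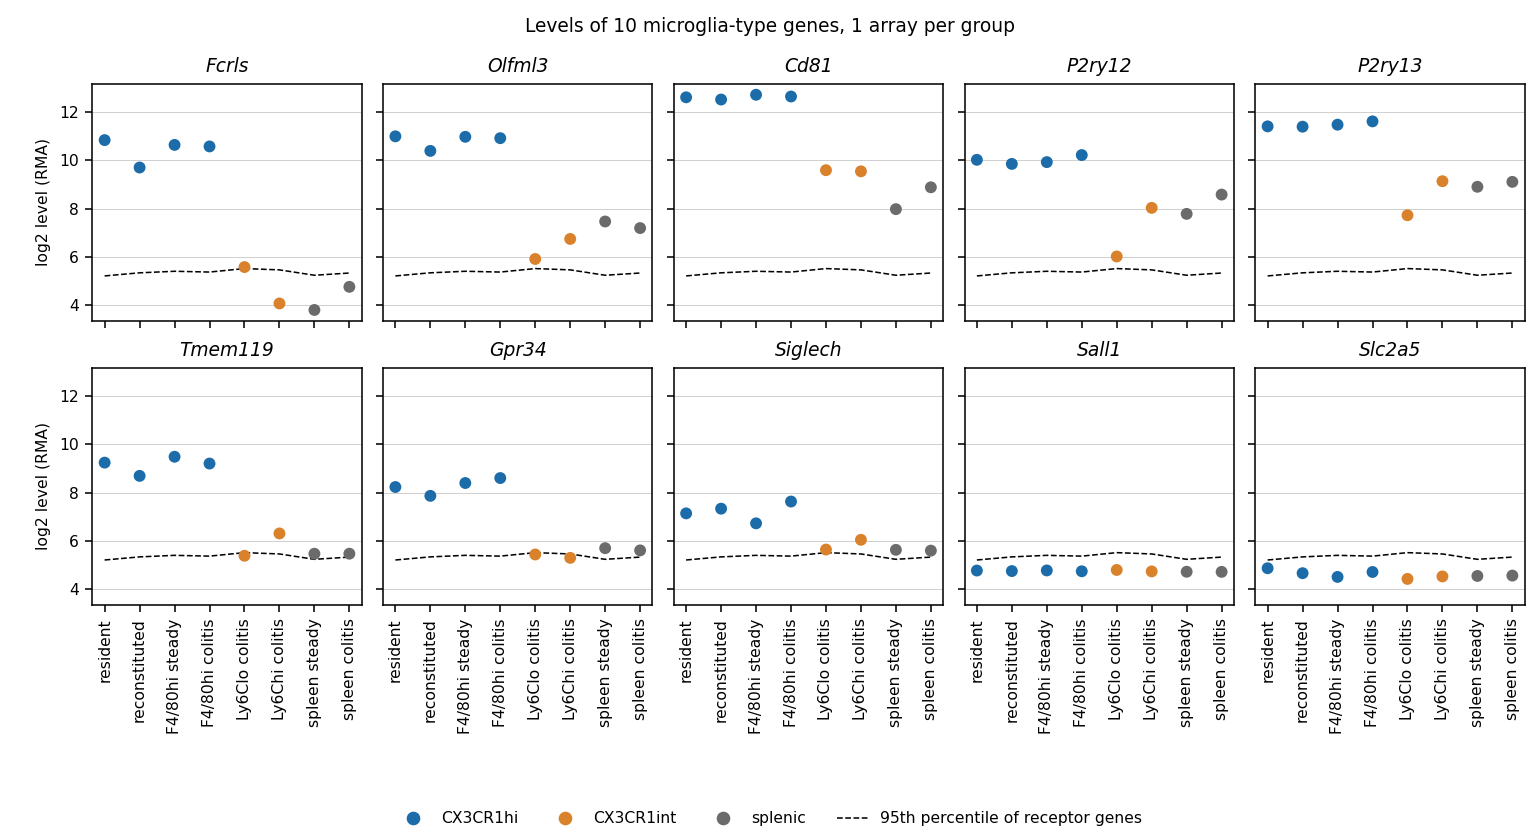
Log2 level of each of the 10 genes on each of the 8 arrays, 1 point per array, with the groups in colour and a dashed line for the off-tissue reference. The 4 CX3CR1hi points lie above the other 4 in 8 panels, and Sall1 and Slc2a5 lie under the reference throughout.

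The tested differences were of the same order. With limma over 10673 genes bright enough to test, all 8 of these genes were higher in CX3CR1hi macrophages than in splenic monocytes, as were 22.2% of all genes tested, while 29% of genes were lower, at a Benjamini-Hochberg adjusted p under 0.05. Their median log2 difference was 3.06, beside -0.12 over all genes tested. Fcrls and Gpr34 entered the test through the CX3CR1hi arrays alone, and Tmem119 and Siglech through those and the Ly6Chi colitis array, so their place in the test already required a higher signal there. Olfml3, Cd81, P2ry12 and P2ry13 were at or above the median on all 8 arrays, and all 4 passed. A gene was tested when it reached the median of its array on at least 2 arrays. In bulk RNA of sorted cells, fewer expressing cells and less RNA per cell cannot be told apart.

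Fcrls, an Fc receptor-like scavenger receptor of the cell surface, gave the largest difference of the 10 genes. Its log2 level was 10.84 in resident, 9.70 in reconstituted, 10.64 in F4/80hi steady-state and 10.57 in F4/80hi colitis macrophages. It was 5.57 in Ly6Clo and 4.06 in Ly6Chi colitis cells, and 3.79 and 4.75 in steady-state and colitis splenic monocytes. Outside the CX3CR1hi arrays it passed the reference in Ly6Clo cells alone, where the reference was 5.51, so the other arrays gave background signal and the fold against them depends on that background. CX3CR1hi macrophages exceeded splenic monocytes by 6.16 (SE 0.49, n = 4 and 2, limma adjusted p = 6e-05). Cd5l, a macrophage scavenger protein gene next to Fcrls on chromosome 3, was under the reference on all 8 arrays. Fcrl1, a B-cell receptor of the same family that lies beyond Cd5l, was lower in CX3CR1hi than in splenic arrays by a difference of -1.13 (adjusted p = 0.00604).

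Olfml3 encodes a secreted glycoprotein with an olfactomedin domain. Its log2 level was 10.99, 10.39, 10.97 and 10.92 in resident, reconstituted, F4/80hi steady-state and F4/80hi colitis macrophages. It was 5.91 and 6.74 in Ly6Clo and Ly6Chi colitis cells, and 7.46 and 7.19 in steady-state and colitis splenic monocytes. The reconstituted array was the lowest of the CX3CR1hi arrays, and the monocyte arrays stood above both CX3CR1int arrays. The difference between CX3CR1hi and splenic arrays was 3.49 (SE 0.27, adjusted p = 4.9e-05). Of the 8 other olfactomedin family genes measured, Olfm1 alone was bright enough to test, and it was lower in CX3CR1hi than in splenic arrays (difference -1.59, adjusted p = 0.00243). Hipk1, the gene beside Olfml3, was also lower in CX3CR1hi arrays, by a difference of -0.66.

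Cd81, a tetraspanin that organises receptors in the membrane, varied least among the CX3CR1hi arrays of the 8 genes measured there. Its level was 12.61 in resident, 12.52 in reconstituted, 12.72 in F4/80hi steady-state and 12.64 in F4/80hi colitis macrophages. The Ly6Clo and Ly6Chi colitis cells had 9.59 and 9.54, and the steady-state and colitis splenic monocytes had 7.97 and 8.88. The 3 populations formed 3 separate steps on this scale, CX3CR1hi over CX3CR1int over splenic. CX3CR1hi exceeded splenic arrays by 4.20 (SE 0.23, adjusted p = 1.31e-05). Among 16 other tetraspanins tested, 9 were higher and 4 lower in CX3CR1hi than in splenic arrays, with a median difference of 0.84. The largest were Cd63 of late endosomes at 5.39, Tspan8 at 4.45, Cd9 at 3.67 and Tspan4 at 2.19. Tspan32, which adjoins Cd81 on chromosome 7, had a difference of 0.33 that missed the threshold.

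Tmem119 encodes a membrane protein used to tell microglia from other brain macrophages. The gut macrophages had log2 levels of 9.24, 8.69, 9.49 and 9.20 in resident, reconstituted, F4/80hi steady-state and F4/80hi colitis arrays. The level was 5.38 in Ly6Clo and 6.31 in Ly6Chi colitis cells, and 5.46 and 5.47 in steady-state and colitis spleen. The Ly6Clo array was under its reference, and the splenic arrays were little above theirs, which were 5.23 and 5.32. The CX3CR1hi minus splenic difference was 3.69 (SE 0.29, adjusted p = 5.61e-05). Selplg, the gene next to Tmem119, encodes the P-selectin ligand and is itself abundant in microglia. It changed the other way, with a difference of -1.52 (adjusted p = 0.000126).

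P2ry12 and P2ry13 are G-protein-coupled receptors for ADP. In the brain P2ry12 guides microglial processes toward ATP and ADP released by damaged cells, and on platelets it supports aggregation. P2ry12 had log2 levels of 10.02, 9.85, 9.92 and 10.22 in resident, reconstituted, F4/80hi steady-state and F4/80hi colitis macrophages, 6.01 and 8.03 in Ly6Clo and Ly6Chi colitis cells, and 7.78 and 8.58 in steady-state and colitis spleen. P2ry13 had 11.41, 11.39, 11.48 and 11.61 on the same CX3CR1hi arrays, 7.72 and 9.13 in Ly6Clo and Ly6Chi colitis cells, and 8.90 and 9.11 in steady-state and colitis spleen. Both genes were thus well above the reference in monocytes, highest in CX3CR1hi macrophages and lowest in Ly6Clo colitis cells. CX3CR1hi macrophages exceeded splenic monocytes by 2.47 for P2ry13 (SE 0.33, adjusted p = 0.000733) and by 1.82 for P2ry12 (SE 0.50, adjusted p = 0.0167). Without the steady-state spleen array the P2ry12 difference was 1.43 and its call was lost (adjusted p = 0.14).

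These 2 genes are neighbours on mouse chromosome 3, in a row of related receptors that includes, in this order, Gpr171, P2ry14, P2ry13 and P2ry12. Fcrls and Olfml3 lie on the same chromosome, outside this row. The levels of these 4 genes did not share 1 pattern. P2ry14, a receptor for UDP-sugars, had log2 levels from 8.76 to 9.24 on the CX3CR1hi arrays, 8.15 and 7.75 in Ly6Clo and Ly6Chi colitis cells, and 6.26 and 6.59 in steady-state and colitis spleen. Gpr171 had 8.11 to 9.15 on the CX3CR1hi arrays, 10.53 and 9.87 in Ly6Clo and Ly6Chi cells, and 5.83 and 5.50 in spleen. Like the ADP receptors, both were higher in CX3CR1hi macrophages than in splenic monocytes, by 2.63 for P2ry14 (adjusted p = 3.67e-05) and 2.99 for Gpr171 (adjusted p = 0.000204). CX3CR1int cells also exceeded splenic monocytes, by 1.53 for P2ry14 (adjusted p = 0.00295) and 4.53 for Gpr171 (adjusted p = 0.000326). For P2ry12 and P2ry13 that comparison gave -1.16 and -0.58, which missed the threshold (adjusted p = 0.174 and 0.298). Of the 4 genes described, Gpr171 alone was higher in CX3CR1int than in CX3CR1hi cells, by 1.55 (adjusted p = 0.00995).

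**Figure D2:**
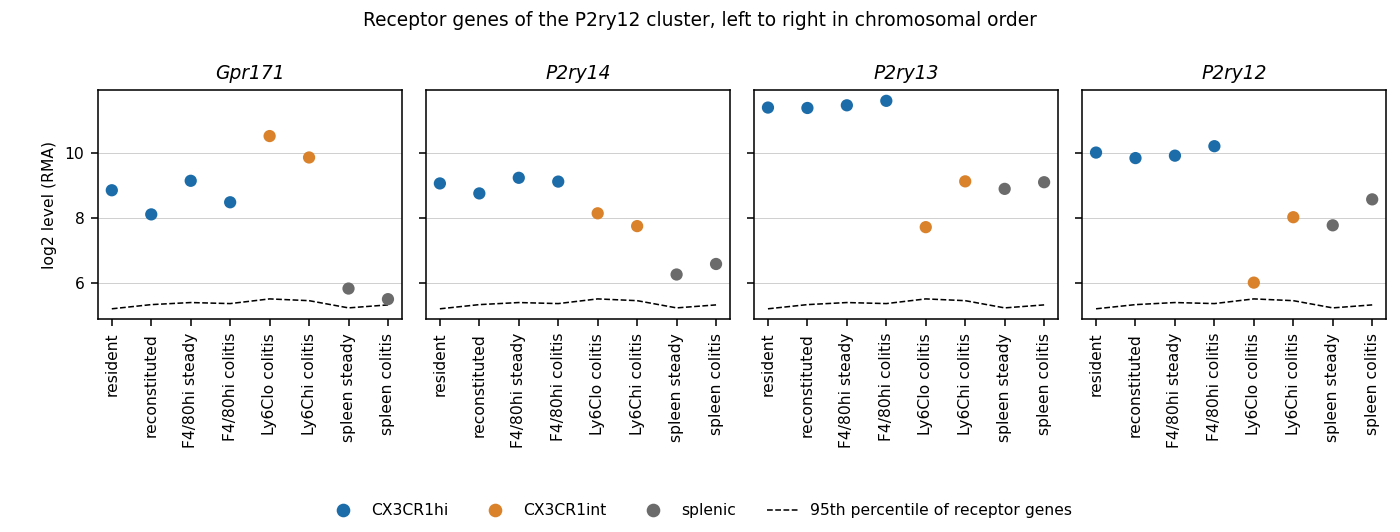
Log2 levels of Gpr171, P2ry14, P2ry13 and P2ry12, in their order on chromosome 3, with 1 point per array, a panel per gene and a dashed line for the off-tissue reference. Splenic monocytes are lowest for Gpr171 and P2ry14, and Ly6Clo colitis cells are lowest for P2ry13 and P2ry12.

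The bases just upstream of 4 members are shown to compare their promoters, as RefSeq gives them on build GRCm38.p6. All 4 were higher in CX3CR1hi arrays than in splenic and CX3CR1int arrays. Each run holds the 250 bases before the annotated start, 5′ to 3′ on the gene's own strand, and capitals mark GAGGAA, the core letters bound by PU.1, the master transcription factor of macrophages and microglia. P2ry13 and P2ry12 are shown because they adjoin, Olfml3 as another gene of chromosome 3, and Cd81 as the member with the steadiest level in CX3CR1hi macrophages. The windows are chr3:59210883-59211132 (minus strand) for P2ry13, chr3:59262986-59263235 (minus) for P2ry12, chr3:103738002-103738251 (minus) for Olfml3 and chr7:143052500-143052749 (plus) for Cd81.
P2ry13: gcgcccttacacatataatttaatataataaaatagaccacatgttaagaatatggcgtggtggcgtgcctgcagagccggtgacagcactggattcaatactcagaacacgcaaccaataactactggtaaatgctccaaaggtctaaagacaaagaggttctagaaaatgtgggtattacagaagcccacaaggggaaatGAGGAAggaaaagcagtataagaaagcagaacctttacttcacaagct
P2ry12: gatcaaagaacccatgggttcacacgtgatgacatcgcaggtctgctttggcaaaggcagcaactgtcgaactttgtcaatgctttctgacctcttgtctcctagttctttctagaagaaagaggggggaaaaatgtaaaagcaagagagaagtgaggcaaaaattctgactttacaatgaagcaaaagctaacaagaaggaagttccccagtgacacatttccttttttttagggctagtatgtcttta
Olfml3: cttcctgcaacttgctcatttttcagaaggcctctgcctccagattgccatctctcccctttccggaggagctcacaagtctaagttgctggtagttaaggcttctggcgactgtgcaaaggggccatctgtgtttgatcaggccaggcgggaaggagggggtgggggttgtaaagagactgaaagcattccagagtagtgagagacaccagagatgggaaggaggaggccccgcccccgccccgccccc
Cd81: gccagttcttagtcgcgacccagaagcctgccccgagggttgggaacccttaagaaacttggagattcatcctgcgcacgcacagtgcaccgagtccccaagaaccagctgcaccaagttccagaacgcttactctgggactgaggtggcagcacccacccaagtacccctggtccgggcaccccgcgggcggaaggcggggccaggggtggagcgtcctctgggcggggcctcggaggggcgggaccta
For Fcrls the 30 bases around its match are shown, chr3:87263651-87263680 on the minus strand.
Fcrls: caagtctgtaaaGAGGAAggacgtttgctt

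RefSeq gave 10 such windows for 8 of the 10 genes, and none was at hand for Tmem119 and Gpr34. GAGGAA, searched on both strands, was in 2 of the 10 windows, those of P2ry13, with its first base at -48 from the start, and Fcrls, at -144. It was in 23.3% of all 32851 mouse windows. GAGGAAGT, TGCTGAC of MAF factors, TGANTCA of AP-1 and the MEF2 motif, CTA and TAG with 4 bases between them, were in 0 of the 10 windows, and in 2.44%, 3.81%, 6.75% and 3.2% of all windows. GAGGAAGT contains GAGGAA, so these counts overlap. The share of G and C was 41.6% in both the P2ry13 and the P2ry12 window, 57.6% for Olfml3 and 65.6% for Cd81, beside a median of 52.4% over all windows. P2ry13 and P2ry12 thus shared a low share of G and C, with the GAGGAA match in P2ry13 alone. Forms of the PU.1 site without GAGGAA were not searched, so P2ry12 may hold one. The arrays measured no binding at these sites.

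Gpr34 is a receptor for lysophosphatidylserine, a lipid signal of damaged and activated cells. Its log2 level was 8.23, 7.86, 8.40 and 8.60 in resident, reconstituted, F4/80hi steady-state and F4/80hi colitis macrophages. It was 5.43 and 5.29 in Ly6Clo and Ly6Chi colitis cells, both under the reference, and 5.69 and 5.60 in steady-state and colitis spleen, where the reference was 5.23 and 5.32. CX3CR1hi exceeded splenic arrays by 2.63 (SE 0.20, adjusted p = 4.59e-05). Gpr82, a related receptor next to Gpr34 on chromosome X, was highest in Ly6Clo colitis cells at 7.29 and between 5.11 and 5.60 on the other arrays, including CX3CR1hi macrophages.

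Siglech is a sialic acid-binding lectin that signals through the adaptor Tyrobp (DAP12) and is known from plasmacytoid dendritic cells as well as from microglia. Its log2 level was 7.14 in resident, 7.33 in reconstituted, 6.72 in F4/80hi steady-state and 7.63 in F4/80hi colitis macrophages. It was 5.64 and 6.04 in Ly6Clo and Ly6Chi colitis cells and 5.63 and 5.59 in steady-state and colitis spleen. The CX3CR1hi arrays were again the highest, but they spread over 0.90 between the 2 F4/80hi arrays. The CX3CR1hi minus splenic difference was 1.60 (SE 0.24, adjusted p = 0.00126). Of 6 plasmacytoid dendritic cell markers tested, 0 were higher and 1, Il3ra, was lower in CX3CR1hi than in splenic arrays. Marker sums, here and below, add the levels of a list on the linear scale and are given as log2. The brightest genes weigh most in such a sum. For the 9 measured markers the sum was 11.79 to 12.04 on the CX3CR1hi arrays. It was 12.08 and 11.85 in Ly6Clo and Ly6Chi cells, and 11.75 and 11.77 in spleen. Irf8 at 10.75 to 11.28 and Tcf4 at 9.36 to 10.24 made up most of that sum on every array. The sum therefore cannot show whether such cells were present. Pacsin1 was at or under the reference on all 8 arrays, and Ccr9 and Spib on the CX3CR1hi arrays. In Ly6Clo cells Ccr9 was at 7.55 and Spib at 8.04. Among 7 other Siglec family and adaptor genes tested, 3 were higher and 2 lower, among them Cd22 at 1.92, Cd33 at 1.12 and the adaptor Hcst at -0.94.

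Sall1, the zinc-finger factor of microglial identity, had log2 levels between 4.71 and 4.79 on all 8 arrays, a range of 0.08. Slc2a5, the fructose transporter GLUT5, lay between 4.42 and 4.86, a range of 0.44. Neither passed the reference on any array, and neither was bright enough to be tested. In a fit without that filter the CX3CR1hi minus splenic difference was 0.04 for Sall1 (SE 0.06, adjusted p = 0.679) and 0.13 for Slc2a5 (SE 0.10, adjusted p = 0.401). A probe set that does not respond would read the same, since no sample on these arrays is known to express either gene. Their relatives gave the same or other readings. Sall2, Sall3 and Sall4 were at or under the reference on all 8 arrays, and Slc2a7, the transporter gene next to Slc2a5, was too. Of 7 other glucose and fructose genes tested, 3 were higher and 3 lower in CX3CR1hi than in splenic arrays. These included Slc2a13 at 2.20, the glucose transporter Slc2a1 at 1.01, Slc2a6 at -2.74 and Khk, the ketohexokinase that phosphorylates fructose, at -1.68. The flanks of Sall1 were not silent, with Tox3 at 1.73 and Cyld at -0.65 in the same comparison.

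The CX3CR1int cells of the inflamed colon had lower levels than CX3CR1hi macrophages. Still, 6 of the 10 genes, like most probe sets, were above the reference on each of these arrays. The genes not above it were, beside Sall1 and Slc2a5, Tmem119 and Gpr34 in Ly6Clo cells and Fcrls and Gpr34 in Ly6Chi cells. All 8 tested genes were lower in CX3CR1int than in CX3CR1hi arrays, as were 16.6% of all genes tested. Their median difference was -3.05, beside 0.01 over all genes. Fcrls differed by -5.62, Olfml3 by -4.50, Tmem119 by -3.31, Cd81 by -3.06, P2ry13 by -3.05, P2ry12 by -2.98, Gpr34 by -2.91 and Siglech by -1.37 (SE 0.20 to 0.50, limma adjusted p from 8.49e-05 to 0.00671). The P2ry12 difference rested most on 1 array, with -1.98 without the Ly6Clo array and -3.99 without the Ly6Chi array, and the call held in both. This comparison uses the same CX3CR1hi arrays as the one with spleen. Of those arrays 3 are from steady state, and both CX3CR1int arrays are from colitis, so the values within colitis, from arrays all labelled male, were read too. Ly6Clo cells were lower than F4/80hi colitis macrophages by log2 differences from -1.99 for Siglech to -5.01 for Olfml3, and Ly6Chi cells from -1.59 for Siglech to -6.51 for Fcrls. All 8 were past 2-fold in both comparisons of single arrays, where 11.8% of genes were that much lower in Ly6Clo cells and 9.07% in Ly6Chi cells.

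Between CX3CR1int cells and splenic monocytes 2 of the 8 genes differed, against 24.4% of genes tested in either direction. Cd81 was higher in CX3CR1int cells by 1.14 (SE 0.26, adjusted p = 0.0189) and Olfml3 was lower by a difference of -1.003 (SE 0.31, adjusted p = 0.0492). The other 6 ranged from -1.16 for P2ry12 (95% interval -2.49 to 0.17) to 0.54 for Fcrls (-0.77 to 1.85). The intervals of P2ry12, P2ry13, Fcrls and Tmem119 reach past a 2-fold difference, so these comparisons leave such differences undecided. The count depended on single arrays, and the share of all genes called with each array left out is not set beside it. It was 1 without the resident, F4/80hi steady-state or F4/80hi colitis array. Leaving out a CX3CR1int or splenic array leaves 1 array in that population, so only differences are given here. Without the Ly6Chi array P2ry12 was at -2.17 and P2ry13 at -1.28, and without the Ly6Clo array P2ry13 was at 0.13.

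**Figure D3:**
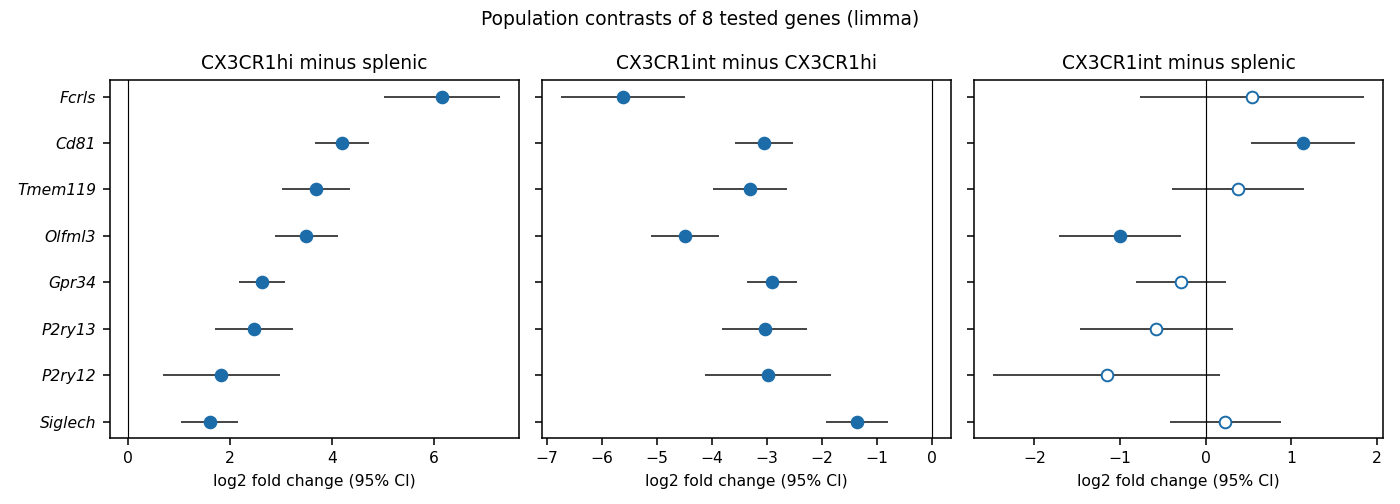
Log2 difference of each tested gene in the 3 population comparisons with its 95% interval from limma, filled where the adjusted p passed. The intervals of all 8 genes lie above 0 for CX3CR1hi minus splenic and below 0 for CX3CR1int minus CX3CR1hi, while for CX3CR1int minus splenic only those of Cd81 and Olfml3 leave out 0.

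Between the 2 CX3CR1int arrays, P2ry12 was lower in Ly6Clo than in Ly6Chi colitis cells by a log2 difference of -2.02 and P2ry13 by -1.41. Single arrays allow no test, and 12% of genes were 2-fold apart here in either direction. Tmem119 differed by -0.92, Olfml3 by -0.83 and Siglech by -0.41, while Cd81 differed by 0.05. Fcrls differed by 1.51, but neither array reached the brightness at which genes were compared, which also held for Gpr34 at 0.14. In the comparison of Ly6Clo cells with colitis splenic monocytes, chosen after values were seen, P2ry12 differed by -2.57, P2ry13 by -1.38 and Olfml3 by -1.28, where 22.5% of genes were 2-fold apart. Between Ly6Chi colitis cells and colitis splenic monocytes, Tmem119 differed by 0.84, Cd81 by 0.66 and P2ry12 by -0.55. Of the 6 genes compared there 0 were 2-fold apart, which is near the 13.7% of all genes compared.

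Markers of conventional dendritic cells and monocytes moved with these comparisons of CX3CR1int cells, and their part in the differences was not tested. The log2 of the summed level of 8 dendritic cell markers was 13.62 in Ly6Clo and 12.32 in Ly6Chi cells. It was 9.97 to 10.10 on the CX3CR1hi arrays, and 11.51 and 11.66 in steady-state and colitis spleen. All 8 were above the reference in Ly6Clo cells and 7 in Ly6Chi cells, where Zbtb46 was under it, and Flt3, Zbtb46 and Itgae were under it on the CX3CR1hi arrays. Of 6 tested, 4 were higher in CX3CR1int than in CX3CR1hi arrays. The 6 measured monocyte markers summed to 12.71 in Ly6Clo and 13.98 in Ly6Chi cells, 10.91 to 11.44 on the CX3CR1hi arrays, and 14.40 and 14.42 in spleen. Chil3 and Hp were under the reference in Ly6Clo cells and above it in Ly6Chi cells. Pancreatic acinar markers summed to 8.37 in Ly6Clo cells, 11.72 in Ly6Chi cells and 8.48 in colitis spleen. Markers of B and plasma cells summed to 11.45, 13.47 and 10.39 on the same arrays, and the part of both lists was not tested.

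Monocyte-reconstituted macrophages carried the same 8 genes. Fcrls was lower than in resident macrophages by a log2 difference of -1.14, the 1 gene of the 8 past 2-fold, where 1.76% of the genes bright enough to compare were past it in either direction. Olfml3 differed by -0.60, Tmem119 by -0.55 and Gpr34 by -0.37. P2ry12, Cd81 and P2ry13 differed by -0.17, -0.09 and -0.01, and Siglech by 0.19. Against F4/80hi steady-state macrophages, the other steady-state array, the differences were -0.94 for Fcrls, -0.79 for Tmem119, -0.58 for Olfml3, -0.53 for Gpr34 and 0.61 for Siglech, so Fcrls then missed 2-fold, which 2.09% of genes passed in either direction. Those 2 comparison arrays, resident and F4/80hi steady state, differed from each other by -0.41 for Siglech to 0.24 for Tmem119. Among the CX3CR1hi arrays the reconstituted one was thus lowest for each of the 8 genes but Siglech. For Fcrls, Olfml3, Tmem119 and Gpr34 it was lower by more than the resident and F4/80hi steady-state arrays differed for the same gene. With 1 reconstituted array this has no replicate check. The F4/80hi steady-state array was labelled male, and the resident and reconstituted arrays female. Pancreatic acinar markers also differed between these arrays, and their part was not tested. The log2 of their summed level was 11.93 in resident, 9.26 in reconstituted and 8.84 in F4/80hi steady-state macrophages.

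In F4/80hi macrophages at day 4 of colitis all 8 genes were still above the reference, as most probe sets were on every array. Between colitis and steady state 0 of the 8 were 2-fold apart, where 1.47% of genes compared were, so the count is near the background. Siglech differed most, with 7.63 in colitis and 6.72 in steady state, a difference of 0.90, though against resident macrophages it was 0.49. P2ry12 differed by 0.29, Gpr34 by 0.21, P2ry13 by 0.14 and Tmem119 by -0.28, and Fcrls, Olfml3 and Cd81 by -0.06, -0.06 and -0.07. Acinar markers summed to 11.31 in colitis and 8.84 in steady state, and their part was not tested. In splenic monocytes 0 of the 4 genes bright enough to compare were 2-fold apart, against 0.708% of genes. Colitis minus steady state was 0.91 for Cd81, 0.80 for P2ry12, 0.20 for P2ry13 and -0.27 for Olfml3. The steady-state spleen array was labelled female and the colitis one male, so colitis and labelled sex cannot be told apart in that comparison.

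**Figure D4:**
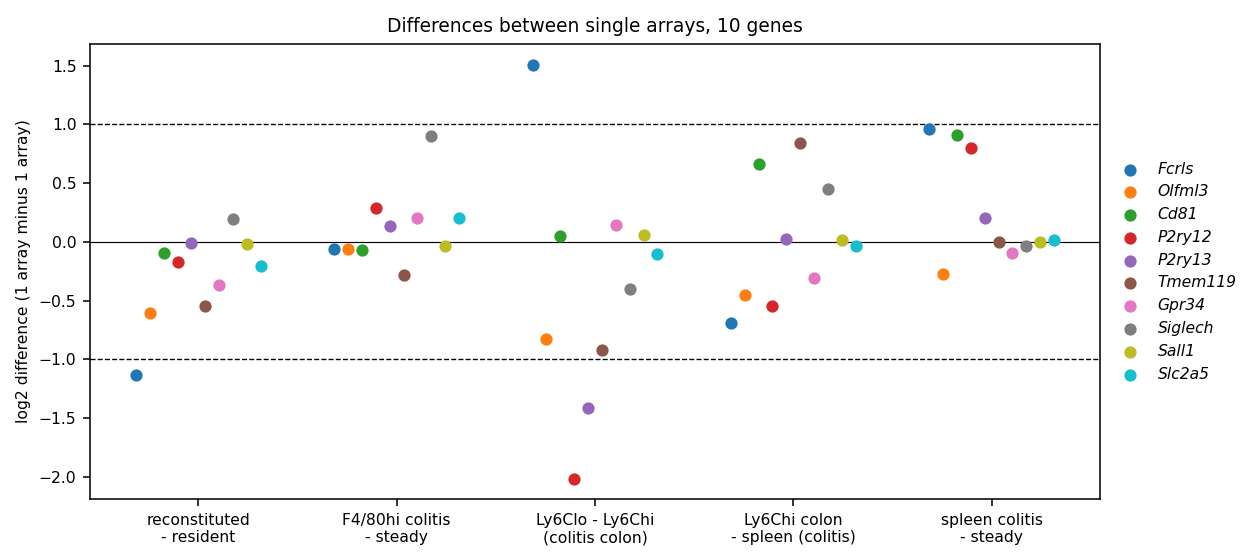
Log2 difference of each gene between single arrays, 1 column of points per comparison and a colour per gene, with dashed lines at a 2-fold difference. Fcrls passes the line in reconstituted minus resident macrophages, and P2ry12 and P2ry13 pass it in Ly6Clo minus Ly6Chi colitis cells, where the Fcrls point lies under the brightness used for comparison.

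Other genes of microglia divided in CX3CR1hi macrophages. These lists too were drawn up by name with earlier results known, and a gene in several lists counts in each. Of 23 further genes that microglia share with macrophages generally, 11 were higher and 2 lower than in splenic monocytes (median difference 0.81). The complement genes C1qa and C1qc stood at 5.55 and 5.22, the bridging ligand Gas6 at 5.50 and its receptor Mertk at 4.73. Of 17 further microglia-enriched genes tested, 11 were higher, 2 lower and 4 did not pass (median 1.85). The transporter Slco2b1 was at 4.69, Sparc at 4.18, Rab3il1 at 4.03 and the adhesion receptor Adgrg1 at 2.71, and Crybb1 and Abi3 were lower at -1.54 and -0.77. Slco2b1 had levels from 9.67 to 10.08 on the CX3CR1hi arrays and from 5.05 to 5.58 on the other 4. Upk1b, Nav3 and Sall3 were at or under the reference on every array. Of 13 genes known as low in microglia and high in other macrophages, 7 were higher and 2 lower (median 2.58). The scavenger receptor Stab1 was at 6.31, the chemokine Pf4 at 6.11, the folate receptor Folr2 at 4.67 and the mannose receptor Mrc1 at 4.28. The gut macrophages thus carried genes of both kinds.

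Regulators of the microglial state were mixed. Of 10 transcription factors tested, 4 were higher and 2 lower in CX3CR1hi than in splenic arrays, with Maf at 2.13, Bhlhe41 at 2.08, Bhlhe40 at 2.05 and Irf5 at -1.23. Of 11 genes of the TGF-beta pathway, 5 were higher and 4 lower (median difference 0.12), beside 22.2% and 29% of all genes tested. The 4 with the largest differences were all higher, the receptors Tgfbr2 at 1.21 and Tgfbr1 at 1.05, and the feedback inhibitors Smad7 at 2.05 and Skil at 1.79. The ligand gene Tgfb1 had log2 levels of 10.84 to 11.07 on the CX3CR1hi arrays, and 11.95 and 11.83 in steady-state and colitis spleen. Against CX3CR1int cells, 4 genes of the pathway were higher and 1 lower in CX3CR1hi, beside 16.6% and 13.3% of all genes tested. Of 12 further purinergic and related receptor genes, 6 were higher and 3 lower than in spleen, with P2ry10b at -2.91 and the ecto-nucleotidase Nt5e, which makes adenosine, at 2.10. Of 3 Fc receptor-like and scavenger genes, Cd163 was higher at 2.58 and Fcrl1 lower, while Fcrlb at 0.28 did not pass.

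**Figure D5:**
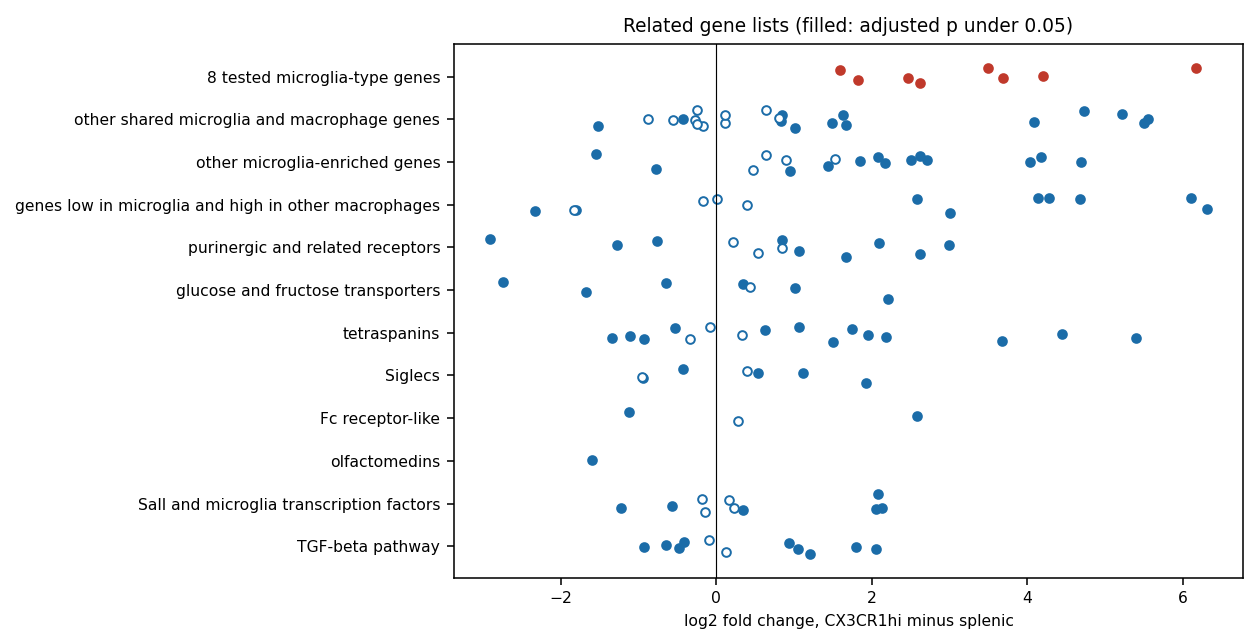
Log2 difference CX3CR1hi minus splenic for each tested gene of the related lists, 1 point per gene and 1 line per list, with filled points for genes past the threshold and small vertical shifts that only keep points apart. All 8 tested members lie on the higher side, and each of the other larger lists has genes on both sides.

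By likeness over the 8 arrays, each of the 8 varying genes had from 46 to 265 genes with a Pearson r of at least 0.95 (0.431% to 2.48% of those tested). The points are few and mostly divide CX3CR1hi arrays from the rest, so these are descriptions of that division. The 3 most alike were Kcnk13, H2-M2 and Lag3 for Fcrls, Kif1b, Tmem37 and Slc7a4 for Olfml3, Pf4, C1qc and C1qa for Cd81, and Rhob, Selenop and Apoe for P2ry12. They were Tmem37, Camk1 and Nfia for P2ry13, Zbtb4, Cd276 and Dtx4 for Tmem119, Agmo, Trim47 and Kcnj10 for Gpr34, and Gpnmb, Kank2 and Atxn2 for Siglech. Their r was between 0.98 and 1.00. Among the 8 genes themselves r ran from 0.79 for Cd81 with P2ry12 to 0.98 for Olfml3 with P2ry13.

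Markers of other cell types moved with these comparisons. Each of 16 epithelial genes was higher in CX3CR1hi than in splenic arrays (median 5.23). The log2 of their summed level was 14.99 to 15.58 on the CX3CR1hi arrays, and 13.81 and 14.18 in Ly6Clo and Ly6Chi cells. It was 9.06 and 10.06 in steady-state and colitis spleen, and the part of these genes in the results was not tested. Stromal markers summed to 10.56 to 12.19 on the CX3CR1hi arrays, 10.95 and 11.84 on the CX3CR1int arrays, and 8.75 and 8.74 in spleen, with Dcn and Dpt the 2 of 9 that were higher. The plasma cell genes Jchain and Igha were higher in CX3CR1hi than in splenic arrays, by 4.91 and 4.27, while Ms4a1 of B cells was lower. Of 8 acinar genes 1, Cela1, was higher. For P2ry12, which platelets also express, the platelet genes Itga2b, Gp9 and Tubb1 were at or under the reference on all 8 arrays, while Pf4 and Ppbp were higher in CX3CR1hi arrays. Cx3cr1, the gene of the sort, had log2 levels of 10.88 to 11.34 on the CX3CR1hi arrays, 7.51 and 7.95 on the CX3CR1int arrays, and 10.76 and 9.95 in steady-state and colitis spleen. All 9 macrophage markers were above the reference on every array, and all 6 monocyte markers tested were lower in CX3CR1hi than in splenic arrays. CX3CR1hi and splenic arrays each held both labelled sexes in equal number. Within the arrays labelled female the CX3CR1hi minus splenic difference was 1.61 (Siglech) to 6.48 (Fcrls) over the 8 genes, and within those labelled male 1.49 (P2ry12) to 5.85 (Fcrls).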

How the data were processed

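Per the labels' protocols, RNA of sorted cells was hybridised to Affymetrix arrays, 1 for each of 8 groups. The deposited values are on a log2 scale (3.37 to 14.31), made by the authors with RMA and Partek, per the submitters' processing notes. Versions, settings and genome build are not given in the sources used here. Of 35399 probe sets, 21789 carried 1 symbol, 1621 several and 11989 none, which gave 19938 genes. For a gene with several probe sets the one with the highest mean was taken.

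The 3 populations were compared by limma 3.58.1 (R 4.3.3) in 1 fit of all 8 arrays. The fit covered 10673 genes that reached the median of an array on 2 or more arrays, with p-values adjusted by Benjamini-Hochberg and a threshold of 0.05. The number of arrays limits the precision. Single arrays were compared without a test, where the brighter array reached its median, and 2-fold means a difference of 1 or more in log2. The fit was tested on simulated data. Other steps used Python 3.11.15, numpy 2.4.6, pandas 2.3.3 and matplotlib 3.10.9.

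All 10 members were named. Of each of 11 related lists and the marker lists, up to 4 genes with the largest CX3CR1hi minus splenic difference were eligible, and per varying member the 3 genes with the highest r. Other genes were named after their values were seen, among them neighbours on the chromosome and genes at or under the reference. The members and lists were chosen with earlier results of these data known. Alternatives were other filters, scalings, probe set rules, priors, a sex block and each array left out. The values within labelled sex and within colitis were added after seeing the data.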

Additional observations from a re-analysis of the deposited data

Results flagged for a closer look

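Among the 4 CX3CR1hi arrays, the level of Olfml3 in monocyte-reconstituted macrophages stood apart from the other 3, at 10.39. Chance gives such a gap in about 1 in 20 groups. The lowest and the highest array of each of the 10 genes were screened, so 1 such gap is not unusual. The 4 arrays are also of different groups, not replicates of 1 group.

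For 5 genes colitis and steady state differed in opposite directions in F4/80hi macrophages and in splenic monocytes. The difference between the tissues was not tested, since each group had 1 array. In spleen the steady-state array was labelled female and the colitis array male, so colitis and labelled sex cannot be told apart there. Both F4/80hi arrays were labelled male. Fcrls differed by -0.064 in F4/80hi macrophages and by 0.96 in splenic monocytes, where its signal was under the reference. Cd81 differed by -0.072 and 0.91. Tmem119 differed by -0.28 and 0.0023, and Gpr34 by 0.21 and -0.092, with monocyte values close to the reference. Siglech differed by 0.90 in F4/80hi macrophages and by -0.032 in monocytes.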

How the results depend on the processing

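No paired analysis was possible because the labels give no replicate numbers. No called difference reversed its direction under the alternatives run. In CX3CR1int against splenic arrays, 3 differences that had missed the threshold changed sign with 1 array left out. Fcrls ranged from -0.21 (without Ly6Clo) to 1.30, P2ry13 from -1.28 to 0.13 (without Ly6Clo), and Tmem119 from -0.083 (without Ly6Chi) to 0.84. The number of the 8 genes called in CX3CR1hi against splenic arrays, and in CX3CR1int against CX3CR1hi arrays, stayed between 7 and 8. The number of all genes called moved with the setting. For CX3CR1hi against splenic arrays it was 5466 of 10673 in the main fit and 6099 of 19938 with no brightness filter. With the arrays of those 2 populations alone it was 6400 of 10673. The number called in CX3CR1int against splenic arrays was 2, and became 1 with no brightness filter, with quantile normalization repeated and with labelled sex as a block, 0 with the arrays of these populations alone, and 0 to 4 with each array left out. The call of Olfml3 was the one lost in the first 3 cases (adjusted p = 0.0735, 0.0588 and 0.086). In reconstituted against resident macrophages the number of genes past 2-fold went from 1 to 0 with the F4/80hi steady-state array in place of the resident one. Of all genes compared, 1.76% and 2.09% were past it in these 2 cases. In Ly6Clo against Ly6Chi cells the number past 2-fold went from 2 to 1 with the brightness filter at the 75th percentile. It went to 3 with no filter, which adds Fcrls in the opposite direction. In the main comparison 12% of genes were past 2-fold, and the share under the other filters is not set beside the count. The genes above the off-tissue reference numbered 8 under all 3 references tried, and most probe sets passed the main one on each array. The cause of these shifts was not tested. A single array per group limits every comparison of conditions, and genes near the reference, Fcrls, Gpr34 and Tmem119 outside CX3CR1hi macrophages among them, have no reliable order there.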
